A study of Mus musculus with 2 samples.

Results

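The genes described here are the adult globins and 3 further genes named for red blood cells: Hba-a1, Hba-a2, Hbb-b1, Hbb-b2, Car2, Alas2 and Slc4a1, which are 7 of the 16386 genes in each file. They were taken by name, and the names were put together with the difference in FPKM between the libraries already known, so their values are given as a description and no test was run on them. FPKM is a level scaled to the length of the transcript and to the size of the library. RNA was sequenced from sorted stage 1 invariant natural killer T (iNKT) cells, an early stage of a T cell lineage with a semi-invariant T cell receptor, taken from thymi of 5 weeks old mice of the C57BL/6 background. The groups were wild type (WT) and a knockout (KO) of Uhrf1, a protein that brings the maintenance DNA methyltransferase to newly copied DNA. The sources used here do not give how or in which cells Uhrf1 was deleted, nor how many mice gave each library. Each genotype had 1 library, so there is no replicate check and no p-value.

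Hemoglobin is a tetramer of alpha and beta globin chains, each holding a heme. Red cell precursors make both chains together with the enzymes of heme synthesis, under transcription factors such as GATA1 and KLF1. A mature red cell no longer has a nucleus but still carries some globin mRNA. The thymus holds blood vessels and macrophages beside its T cells, and a stage 1 iNKT cell is not known for making hemoglobin.

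The WT library held 26005826 reads in genes and the KO library 12189846. Uhrf1 had an FPKM of 35.3 in WT and 0.626 in the KO. In the list of T and iNKT cell genes 16 of 16 genes were measured, that is, had a mean FPKM of at least 1 over the libraries, and their summed FPKM was 5070 in WT and 6679 in the KO. Here "rose" and "fell" mean a difference of at least 1 in size in log2((KO FPKM + 1) / (WT FPKM + 1)). Of 9954 measured genes 21.3% rose and 23.6% fell, together 44.9%, and the median log2 ratio was -0.01. Intervals are exact at 95%. They cover counting error only and leave out differences between mice, sorts and library preparations. Reads copied by PCR and not tagged with molecular identifiers do not each stand for a molecule. The intervals may thus be too narrow even for counting error.

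Of the 7 genes 6 were measured, 5 of these rose and 0 fell, beside 21.3% of all measured genes that rose. Since the genes were chosen on this difference, nothing is read from that count. The 5 were the 4 globin rows and Car2. Alas2, the erythroid form of the first enzyme of heme synthesis, had an FPKM of 2.89 in WT and 3.25 in the KO. Slc4a1, the anion exchanger band 3 of the red cell membrane (chromosome 11, 102348820 to 102365281), had 0 reads in both libraries, which allows up to 0.115 RPM (reads per 1000000 reads in genes) in WT and 0.246 in the KO. Other defining genes of red cell precursors, among them Klf1 and Epor, also had 0 reads in both libraries. Some were higher in the KO, among them Gata1 (0 and 290 reads), Lmo2 (34 and 355) and Hemgn (15 and 326). Of 35 measured genes on 4 red cell lists given below, 6 rose and 10 fell. Because these genes were mixed, the genes of the set are called below by their names and not as an erythroid group.

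**Figure D1:**
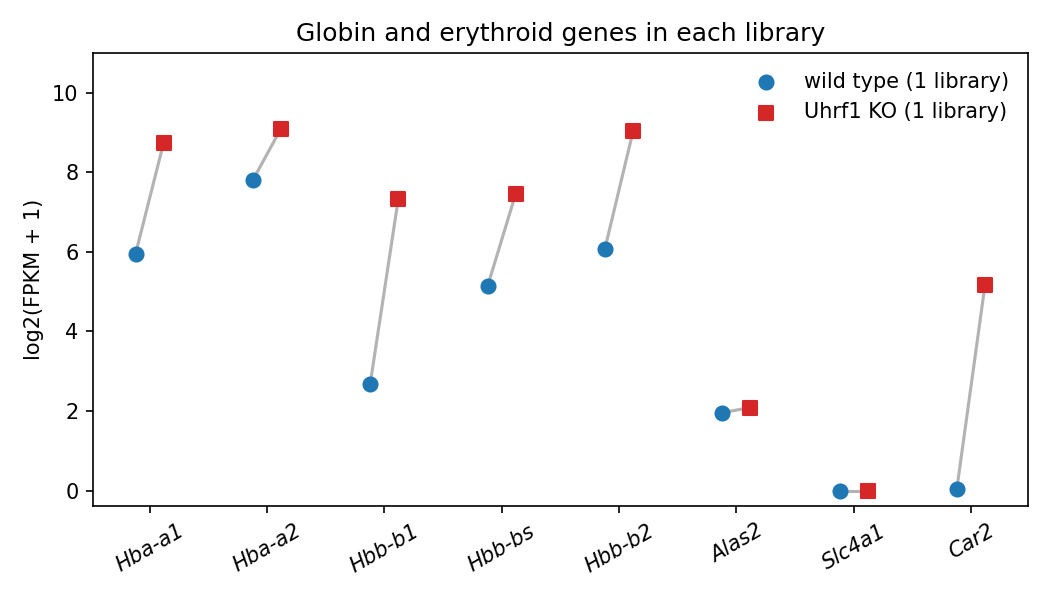
Level of each gene in the WT library (circle) and the Uhrf1 KO library (square), as log2(FPKM + 1), with a line joining both. The globin rows and Car2 sit higher in the KO, Alas2 is nearly level (FPKM 2.89 and 3.25) and Slc4a1 is at 0 in both; Hbb-bs is shown because its reads share a locus with Hbb-b1.

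By summed FPKM, alpha globin was the most abundant product of the set in both libraries. Hba-a1 (Entrez gene 15122) had an FPKM of 60.7 in WT and 428 in the KO, a log2 ratio of 2.80. Hba-a2 (Entrez gene 110257) had 222.5 and 548, a log2 ratio of 1.30. Both were higher in the KO, and by FPKM Hba-a2 stood at rank 518 of all genes in WT and 258 in the KO.

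These rows cannot be read as separate genes. The files give both the same locus, chromosome 11, 32283672 to 32284493 in mm10, which is Hba-a1 in RefSeq; RefSeq places Hba-a2 at 32296492 to 32297310. Their coding sequences of 429 bases differ at 1 base, C381T from Hba-a1 to Hba-a2, counted from 1 at the first coding base. The stretch of exon 3 of 3 around it shows how little a read of coding bases has to tell the copies apart. The capital marks the differing base (GENCODE M21, GRCm38, plus strand, chr11:32284313-32284373 and chr11:32297130-32297190):
Hba-a1: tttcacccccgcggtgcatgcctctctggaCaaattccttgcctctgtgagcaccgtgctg
Hba-a2: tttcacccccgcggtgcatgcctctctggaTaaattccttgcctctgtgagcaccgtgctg

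The reads given to each alpha copy were not whole (1692.8 for Hba-a1 in the KO), while their sum was whole in both libraries within 0.01 of a read. Hba-a1 took 21.2% of the alpha reads in WT and 43.5% in the KO. This split is an estimate, and the sum is the firmer value. Summed, the alpha locus had 2578 reads in WT and 3889 in the KO, or 99.1 and 319 RPM. The summed alpha rows were thus 3.22-fold higher in the KO library (interval 3.06 to 3.38). Their summed FPKM was 283 and 977, a log2 ratio of 1.78. How reads from the RefSeq position of Hba-a2 were counted is not known, so the sum may hold only a part of alpha globin RNA. This limit also holds for the alpha to beta ratios and the globin share below.

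The beta globin rows had a summed FPKM of 106 in WT and 857 in the KO, below the alpha sum in both libraries, and their reads were 7.68-fold higher in the KO (interval 7.23 to 8.16). Hbb-b1 (Entrez gene 15129) had an FPKM of 5.40 in WT and 161 in the KO, a log2 ratio of 4.66. Hbb-b2 (Entrez gene 15130) had 66.4 and 521, a log2 ratio of 2.95. Hbb-bs, which is not in the set, had 34.1 and 175, a log2 ratio of 2.33. All 3 were higher in the KO.

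The names need care in this strain. C57BL/6 mice carry the single haplotype of the beta globin cluster, with the adult genes Hbb-bs and Hbb-bt, whereas Hbb-b1 and Hbb-b2 name the adult genes of the diffuse haplotype found in other strains. The files place Hbb-b1 and Hbb-bs at the same locus, chromosome 7, 103826523 to 103827929, which is Hbb-bs in RefSeq. Hbb-b2 lies at chromosome 7, 103812524 to 103813923, where RefSeq has Hbb-bt. The coding sequences of Hbb-bs and Hbb-bt, 444 bases each, differ at 1 base, C417T. Unlike the alpha rows, Hbb-b2 shares its locus with no other row. The last bases of the coding sequence, in exon 3 of 3, show how alike the coding parts are. The differing base is in capitals (GENCODE M21, GRCm38, minus strand, chr7:103826665-103826725 and chr7:103812656-103812716):
Hbb-bs: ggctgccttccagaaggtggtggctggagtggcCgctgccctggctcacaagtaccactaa
Hbb-bt: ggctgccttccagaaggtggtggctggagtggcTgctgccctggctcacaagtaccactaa

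Hbb-b1 took 13.4% of the reads at the locus it shares in WT and 47.3% in the KO. The large log2 ratio of Hbb-b1 and the smaller one of Hbb-bs thus depend on this estimated split. Summed, that locus had 507 reads in WT and 1907 in the KO, or 19.5 and 156 RPM. This was 8.02-fold higher in the KO (interval 7.27 to 8.87), with a log2 ratio of 3.06. The row named Hbb-b2 had 848 and 2971 reads, or 32.6 and 244 RPM, which was 7.47-fold higher (interval 6.92 to 8.08). The intervals of the beta loci overlap each other and lie above that of the alpha locus.

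**Figure D2:**
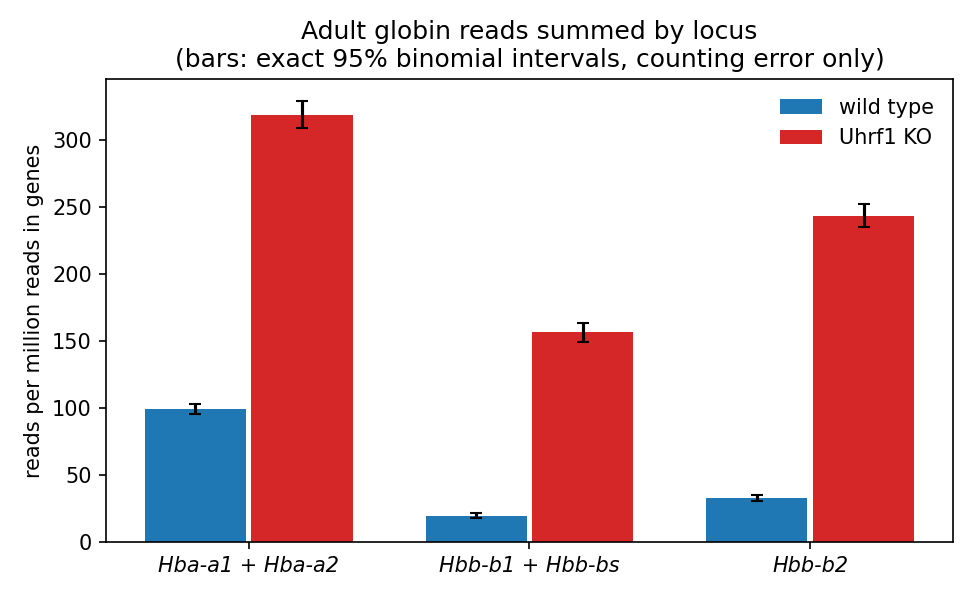
Reads per 1000000 reads in genes (RPM) at the 3 adult globin loci, with rows of the same locus summed, in WT and Uhrf1 KO (1 library each); error bars are exact 95% binomial intervals and cover counting error only. The summed alpha rows go from 99.1 to 319, the locus of Hbb-b1 and Hbb-bs from 19.5 to 156 and Hbb-b2 from 32.6 to 244.

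Together the 5 adult globin rows had 3933 reads in WT and 8767 in the KO, which was 4.76-fold higher per library (interval 4.58 to 4.94). They made up 0.0151% of reads in WT (interval 0.0147% to 0.0156%) and 0.0719% in the KO (interval 0.0704% to 0.0734%). Globin RNA was thus detected in both libraries and was a small part of each. In a bulk library, fewer cells of a type and less RNA per cell cannot be told apart. The embryonic globins Hba-x, Hbb-y and Hbb-bh1 and the minor alpha-like gene Hbq1b had 0 reads in both libraries.

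Ratios within a library do not depend on the scaling between libraries. The alpha and beta globin rows did not keep the same proportion. There were 1.90 alpha reads for each beta read in WT (interval 1.78 to 2.03) and 0.797 in the KO (interval 0.764 to 0.832). The WT ratio was 2.39 times the KO ratio (interval 2.21 to 2.58). On the FPKM scale, which corrects for length, the ratios were 2.68 and 1.14. Between the beta loci the proportion was closer: Hbb-b2 had 1.67 reads for each read at the locus of Hbb-bs in WT (interval 1.5 to 1.87) and 1.56 in the KO (interval 1.47 to 1.65), and the KO ratio was 0.931 of the WT ratio (interval 0.821 to 1.06).

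Car2 encodes carbonic anhydrase 2, which interconverts carbon dioxide and bicarbonate in red cells and also in osteoclasts, kidney, brain and other tissues. Car2 (Entrez gene 12349, chromosome 3, 14886426 to 14900770) had an FPKM of 0.0344 in WT and 35.1 in the KO, a log2 ratio of 5.12. The reads behind these values were 2 in WT and 988 in the KO. The ratio of the scaled counts was 1054 with an interval of 291 to 8715, wide because of the 2 WT reads. Car2 was close to undetected in WT and at rank 2478 of all genes in the KO.

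Car2 and globin both rose but did not keep the same proportion across the libraries. The adult globins had 1966.5 reads for each Car2 read in WT, where Car2 had 2 reads (interval 544 to 16244). In the KO the ratio was 8.87 (interval 8.31 to 9.49). Car2 was among 218 genes with 3 reads or fewer in WT and an FPKM of at least 5 in the KO, and 321 genes had the reverse pattern. Of the 218, 20 genes, Car2 included, had a KO FPKM at least as high as that of Car2. Of the other 14 carbonic anhydrase genes in the files 2 were measured, 1 of which rose and 0 fell, beside 21.3% and 23.6% of all measured genes. The one that rose was Car15, with an FPKM of 1.74 and 10.5 and a log2 ratio of 2.08; it was 5.73-fold higher by scaled counts (interval 3.91 to 8.55). Car14, which shares its locus with Aph1a in the files, had 3.67 and 2.25. Car1, the other main carbonic anhydrase of red cells, had 0 reads in both libraries.

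The measured genes nearest to Hba-a1, by distance between log2(FPKM + 1) values over the 2 libraries, were Hbb-b2 at 0.31, the metallothionein Mt1 at 0.41 (FPKM 77.1 and 502) and Tnfrsf18, a costimulatory receptor of T cells, at 0.51 (79.3 and 340). Those nearest to Car2 were Trem2, a receptor of macrophages and microglia, at 0.02 (0.0507 and 34.8), 1700012L04Rik at 0.05 (0 and 35.1) and 2410133F24Rik at 0.05 (0 and 35.7). With only 2 libraries many genes can lie close by.

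Alas2 joins glycine to succinyl-CoA in the mitochondria of red cell precursors. Alas2 (Entrez gene 11656, chromosome X, 150547417 to 150570622) had an FPKM of 2.89 in WT and 3.25 in the KO, a log2 ratio of 0.13. It had 139 and 70 reads, a fold of 1.07 with an interval of 0.794 to 1.44. The value was low in both libraries and the interval holds no change as well as small changes either way. In GENCODE M21, 311 of the 2403 exon bases of Alas2 (12.9%) lie in exons of Apex2, which runs on the opposite strand. Apex2, an endonuclease of base excision repair, had an FPKM of 4.44 and 28.2. The deposited locus of Apex2 (chromosome X, 150571507 to 150588149) does not overlap that of Alas2, so the bases counted for these genes may not have overlapped. The sources used here do not name the annotation or say whether the counting used strand. Any reads of the overlap thus cannot be told apart, and the part of Apex2 in the Alas2 value was not tested.

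Globin and Alas2 therefore differed in how far they moved. There were 28.3 globin reads for each Alas2 read in WT (interval 23.9 to 33.8) and 125 in the KO (interval 99.0 to 161), a ratio of ratios of 4.43 (interval 3.29 to 6.00). For alpha globin alone it was 3.0 (interval 2.22 to 4.07) and for beta globin 7.15 (interval 5.29 to 9.73).

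The other heme synthesis genes are given from a list chosen with these results known. Of 13 genes beside Alas2, 12 were measured, 0 rose and 4 fell, beside 21.3% and 23.6% of all measured genes. The median log2 ratio was -0.55, beside -0.01 over all measured genes. Slc25a38, the mitochondrial glycine carrier that supplies Alas2, had an FPKM of 48.6 in WT and 1.83 in the KO and was 28.2-fold lower (interval 18.9 to 44.2). Tmem14c, a porphyrinogen transporter of the inner mitochondrial membrane, had 200.9 and 92.8 and fell by 1.11 on the log2 scale. Abcb10, a mitochondrial transporter needed for hemoglobin production in red cell precursors, had 385 reads in WT and 0 in the KO, at least 60.2-fold lower against a floor of 3 reads per library.

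The other enzymes named here stayed within the size rule. Alas1, the housekeeping form of Alas2, had an FPKM of 3.23 and 1.91, Alad 8.60 and 5.50, Uros 8.93 and 10.8, and Urod 50.2 and 35.8. Cpox had 6.56 and 11.1, Ppox 13.1 and 19.2, and Fech, which inserts the iron, 4.07 and 3.92. The mitochondrial iron importer Slc25a37 had 3.66 and 2.08. Abcb6 had 1.82 and 0 and was not measured.

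**Figure D3:**
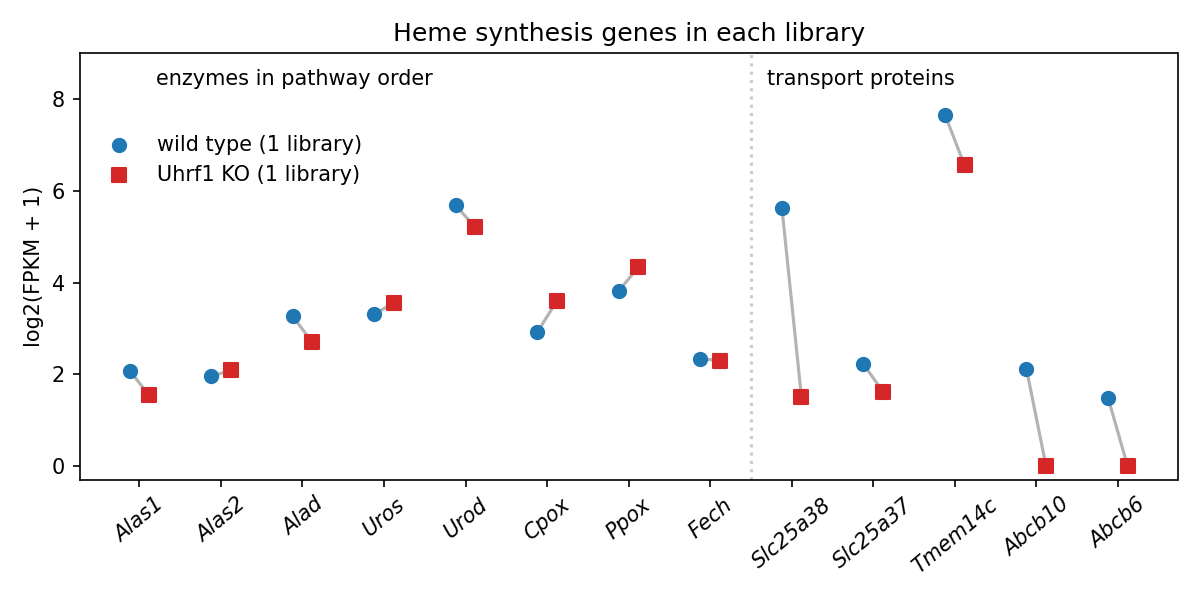
Level of heme synthesis genes in the WT library (circle) and the Uhrf1 KO library (square), as log2(FPKM + 1), with the enzymes in pathway order on the left and transport proteins on the right. Slc25a38, Tmem14c and Abcb10 are lower in the KO past the size rule, and Alas2 is nearly level.

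Transcription factors of red cell precursors went both ways. Of 13 genes 6 were measured, 2 rose and 1 fell, beside 21.3% and 23.6% of all measured genes. These counts are too small to be set apart from those shares. The median log2 ratio was 0.20. Gata1 (chromosome X, 7959260 to 7967910), a regulator of globin and heme genes that also acts in megakaryocytes, mast cells and eosinophils, had an FPKM of 0 in WT and 14.8 in the KO. Its reads numbered 0 and 290, at least 206-fold higher in the KO. Lmo2, a bridging protein of the GATA1 complex, had 0.891 and 19.8 and was 22.3-fold higher (interval 15.6 to 32.7). Zfpm1, a cofactor that binds GATA1, had 14.3 and 6.27 and fell by 1.07. Ldb1 had 277 and 389, Zbtb7a 15.7 and 14.6, and Myb 20.8 and 13.0. Klf1, Tal1, Nfe2 and Gfi1b had 0 reads in both libraries, and Lyl1, Bcl11a and Sox6 had 1 read in 1 library.

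The promoters of the main adult genes are shown because globin and heme genes share known classes of promoter element. The 250 bases before the RefSeq start (GRCm38.p6) are printed 5′ to 3′ on the strand of the gene, with matches in capitals. The first word searched was GATA with an A or T before it and an A or G after it, on both strands. The words CACCC and CCAAT were also searched on both strands. The last, called TATA, was TATAA followed by an A or G, on the strand of the gene. The regions are chr11:32296242-32296491 (plus strand) for Hba-a2, chr7:103827929-103828178 (minus strand) for Hbb-bs and chrX:150547167-150547416 (plus strand) for Alas2:
Hba-a2: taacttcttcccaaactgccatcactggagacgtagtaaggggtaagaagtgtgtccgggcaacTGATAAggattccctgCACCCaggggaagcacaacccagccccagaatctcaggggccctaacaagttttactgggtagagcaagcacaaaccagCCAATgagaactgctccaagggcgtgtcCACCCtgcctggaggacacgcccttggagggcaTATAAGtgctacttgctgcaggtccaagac
Hbb-bs: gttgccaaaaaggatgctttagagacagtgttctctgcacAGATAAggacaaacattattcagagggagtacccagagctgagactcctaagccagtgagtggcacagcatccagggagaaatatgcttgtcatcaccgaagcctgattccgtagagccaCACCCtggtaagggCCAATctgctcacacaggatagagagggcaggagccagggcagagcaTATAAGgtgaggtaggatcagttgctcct
Alas2: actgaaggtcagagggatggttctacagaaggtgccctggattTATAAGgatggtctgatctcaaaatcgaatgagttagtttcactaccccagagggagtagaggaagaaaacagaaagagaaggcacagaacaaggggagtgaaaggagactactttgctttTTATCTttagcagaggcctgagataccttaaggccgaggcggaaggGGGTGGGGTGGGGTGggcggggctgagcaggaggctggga

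Hba-a2 held a GATA word from -186, CACCC from -170 and -63, CCAAT from -91 and TATA from -30. Hba-a1 held the same words, since 247 of 247 compared bases were identical at an offset of 3. Hbb-bs held GATA from -210, CACCC from -90, CCAAT from -76 and TATA from -29. Hbb-bt, the gene at the locus of Hbb-b2, held 0 GATA, 3 CACCC, 3 CCAAT and 1 TATA word. Alas2 held GATA from -86 and 3 CACCC words from -40, -35 and -30, all on the opposite strand, a TATA word from -207 and 0 CCAAT words. Among 32851 promoters of the same length 26.5% held a GATA word, 52.0% CACCC, 33.8% CCAAT and 11.2% TATA. These are matches of letters, and they do not separate Alas2 from the alpha genes by GATA or CACCC.

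Red cell membrane genes were mostly undetected. Of 19 genes beside Slc4a1, 5 were measured, 0 rose and 3 fell, beside 21.3% and 23.6% of all measured genes. The median log2 ratio was -1.69. Add1, with an FPKM of 67.7 in WT and 66.1 in the KO, and Epb4.1, with 22.8 and 16.4, stayed within the size rule. Gypc, glycophorin C, had an FPKM of 17.3 and 3.06 and was 5.85-fold lower (interval 4.68 to 7.39). Dmtn, an actin-bundling protein of the membrane skeleton, had 2.23 and 0, at least 35.3-fold lower, and the water and glycerol channel Aqp9 had 2.79 and 0, at least 37.5-fold lower. Kel and Ermap, both blood group antigens in humans, had 0 reads in both libraries. The skeleton gene Ank1 had 0 reads in WT and 1 in the KO.

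Of 22 other genes linked to red cells 12 were measured, 4 rose and 2 fell, beside 21.3% and 23.6% of all measured genes. Their median log2 ratio was 0.37. Hemgn, hemogen, a nuclear protein of blood progenitors, had an FPKM of 0.186 and 8.68 and was 46.4-fold higher (interval 27.7 to 83.8). Ube2o, a ubiquitin ligase that clears proteins from reticulocytes, had 0.609 and 7.05 and was 10.9-fold higher (interval 8.29 to 14.4). Xpo7, a nuclear exporter, had 0.793 and 4.43, and Fam210b, a mitochondrial protein, had 4.75 and 0.646 and was 7.33-fold lower. Epor, the erythropoietin receptor, Trim10 and Trim58 had 0 reads in both.

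In iron and heme handling 17 of 23 genes were measured and had a median log2 ratio of -0.29. Of these 2 rose and 3 fell, beside 21.3% and 23.6% of all measured genes. Aco1, which binds iron-responsive mRNA elements, had an FPKM of 4.54 and 0.0546; with 537 and 3 reads the ratio of WT to KO was 83.9 with an interval of 28.6 to 408. Ncoa4, the ferritin autophagy receptor, had 5.05 and 0.607 and was 7.96-fold lower. Slc11a2, an iron transporter, had 21.6 and 6.58 and was 3.53-fold lower. Lrp1, a receptor that also takes up heme bound to hemopexin, had 0 and 2.13, at least 181-fold higher.

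Over the 4 lists of heme synthesis, membrane, transcription factor and other red cell genes, 35 genes outside the set were measured. Of these 6 rose (17.1%) and 10 fell (28.6%), beside 21.3% and 23.6% of all measured genes, and 16 of the 66 in the files had 0 reads in both libraries. The median log2 ratio was -0.36. With the alpha-like and beta-like globin lists added, which brought in Hbb-bs as the one further measured gene, 7 of 36 rose and 10 fell, with a median of -0.23. Neither count includes the carbonic anhydrase and iron lists, whose counts are given above.

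The KO library also had higher levels of genes known from other cell types. These lists too were chosen with earlier results of these data known. Of 18 macrophage genes in the files 10 were measured and 10 rose, beside 21.3% of all measured genes. The median log2 ratio of the measured macrophage genes was 1.90. The summed FPKM of the list was 327 in WT and 3104 in the KO, with 12 genes higher and 1 lower. Apoe, a lipid carrier abundant in macrophages, had 246 and 2677 and was 9.92-fold higher (interval 9.59 to 10.3). The complement gene C1qb had 23.2 and 182.5, and Lyz2, lysozyme, 14.3 and 85.7. Emr1 (F4/80), Cd14, Fcgr1, Marco and Spic had 0 reads in both libraries. There were 0.960 globin reads for each Apoe read in WT and 0.460 in the KO.

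Of 16 genes of thymic epithelium and stroma 6 were measured and their median log2 ratio was 2.40. Of the measured ones 4 rose and 0 fell, beside 21.3% and 23.6% of all measured genes. The summed FPKM of the list was 39.1 and 106, with 8 genes higher and 4 lower. Krt8, Aire, Pdgfra and Kdr had 0 reads in both. Col3a1 had 0.688 and 20.9, Col1a2 0.450 and 14.7, Col1a1 9.33 and 25.7, and the keratin Krt18 0.365 and 16.6. Of 12 megakaryocyte and platelet genes 10 had 0 reads in both libraries, and the one measured, Itgb3, had 38.5 and 25.7. Of the 16 T and iNKT cell genes 4 rose and 3 fell, beside the same 21.3% and 23.6%, and their median was 0.20. Cd2 had 147 and 826, Cd5 84.3 and 230, Zap70 328 and 110, and Il17rb 72.8 and 8.61. The part of these other cell types in the globin and Car2 values was not tested.

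**Figure D4:**
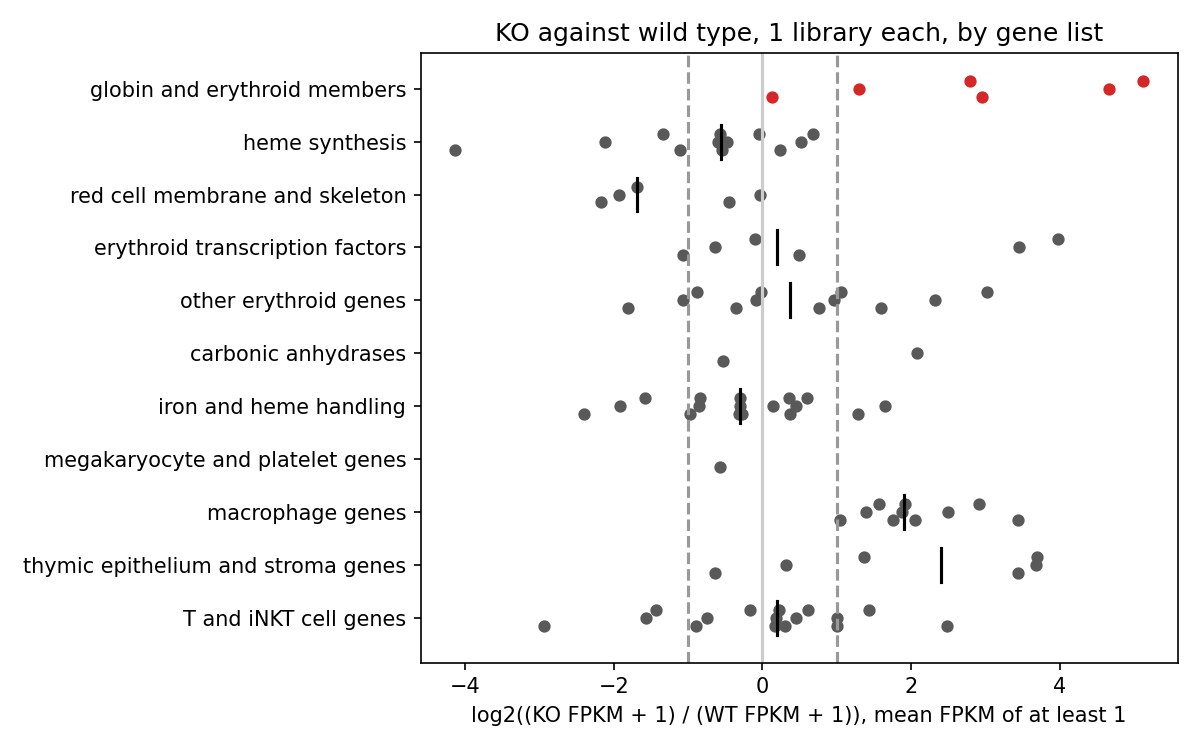
Log2 ratio of KO to WT for each measured gene, 1 library per genotype, with the measured genes of the set in red in the top row and each list below it. Short bars mark medians of lists with at least 4 genes and dashed lines the size rule of 1. The heme synthesis list has a median of -0.55 and the macrophage list 1.90.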

How the data were processed

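The submitters' processing notes name the build mm10 and the programs Cufflinks 2.1.1 and TopHat2 2.0.9, without an annotation or filters. The libraries were made with a TruSeq RNA kit, per the labels' protocols. The authors deposited an FPKM value per gene, per the file headers. The deposited column that the headers call a count behaves as a scaled signal: divided by its smallest step it gave whole reads, within 0.01, for 98.0% of nonzero genes in WT and 98.5% in the KO. Fractions remained, so no count model was fitted, and the FPKM scale assumed in the design was kept.

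Each gene got log2((KO FPKM + 1) / (WT FPKM + 1)). It was measured if its mean FPKM reached 1, and a difference counted at a size of at least 1. Folds are ratios of scaled counts with Clopper-Pearson intervals from the reads; ratios of ratios have exact conditional intervals. Against 0 reads, a fold was computed against a floor of 3 reads per library. The members and the 12 gene lists (190 names) were chosen with earlier results of these data known. The genes named were the members, up to 4 per list with the largest log2 ratio, all heme synthesis and transcription factor genes with reads, and the 3 genes nearest to Hba-a1 and to Car2. A few of these are not reported here. Apex2, Hbb-bs and the genes named at 0 or 1 read were chosen after their values were seen. Symbols came from the files, promoters from RefSeq (GRCm38.p6; of the members Hba-a1, Hba-a2 and Alas2 were matched by symbol) and coding sequences from GENCODE M21. Coordinates are 1-based. The steps were tested on simulated data. The work used matplotlib 3.10.9, scipy 1.17.1, pandas 2.3.3 and numpy 2.4.6 under Python 3.11.15.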

Additional observations from a re-analysis of the deposited data

How the results depend on the processing

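With 1 library per genotype no call can be checked against a replicate, and no library could be left out. No paired analysis was possible because each genotype had 1 library. The 4 globin rows and Car2 kept a log2 ratio of at least 1 in each of the 7 alternatives run for them, with ranges of 2.66 to 2.82 for Hba-a1, 1.16 to 1.30 for Hba-a2, 4.0 to 4.87 for Hbb-b1, 2.82 to 2.97 for Hbb-b2 and 2.99 to 9.34 for Car2. Alas2 ran from 0.02 to 0.17. Rescaling to the upper quartile moved the median of all genes to -0.13. With rows of a locus summed, chosen after seeing the data, 4 of 5 units rose; with more than 10 reads in each library, also added later, 4 of 5 members did, as Car2 left.

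Of the 36 genes of the heme, membrane, transcription factor, other red cell and globin lists outside the set, Hbb-bs among them, 10 fell; this was 4 with a pseudocount of 5, 3 at a size rule of 2, and 5 where the mean FPKM had to reach 5, where 4 rose in place of 7. At a size rule of 0.5, 11 rose. Over all measured genes 2116 rose and 2354 fell; this was 1292 and 1254 with a pseudocount of 5 and 851 and 1026 at a size rule of 2, 1247 fell where the mean FPKM had to reach 5, 1504 fell with more than 10 reads in each library, and 3331 rose at a size rule of 0.5. A pseudocount of 5 shrinks the ratios of low genes, and the filter tests 24 genes. The globin share was 0.0383% in WT and 0.189% in the KO by FPKM, 0.0151% and 0.0719% by scaled counts, 0.0668% and 0.305% without mitochondrial, ribosomal and small RNA genes, and 0.0652% and 0.306% without the 50 most abundant genes, whose smaller sums raise it. By FPKM in place of reads, alpha to beta was 2.68 and 1.14, so the KO value passed from below to above 1, and globins to Alas2 was 135 and 564. The depth of the KO library limits genes listed at 0 there to 0.246 RPM.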
